A study of Homo sapiens with 12 samples.

Results

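Transcripts of the DNA replication machinery were measured in Caco-2 cells exposed to the mould toxin ochratoxin A (OTA), to the bacterium Bacillus subtilis CW14, or to both. The set holds 48 named genes of 26125 entries in the expression table. These genes were chosen by gene symbol with no threshold on their values, but with earlier results of these data known. By role they are 6 subunits of the origin recognition complex, 2 licensing loaders, the 6 subunits of the MCM helicase core, 7 factors of helicase activation, 9 polymerase and primase subunits, 6 genes of the sliding clamp and its loader, 3 single-strand binding subunits, 3 genes of lagging-strand maturation, 4 enzymes of nucleotide supply and 2 chromatin assembly subunits. Of the 48, 44 averaged at least 1 FPKM over the 12 libraries and were tested, among 12928 genes tested in all. FPKM are fragments per kilobase of transcript, scaled to the fragments of the library, so they compare genes per unit of length.

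Caco-2 is an established line from a human colon adenocarcinoma that forms an enterocyte-like layer. Layers were cultured on transwell inserts for 21 days before the exposure, which took place in a HEPES-buffered salt solution. The combined group received OTA at 15 µmol/L and CW14 together in the apical chamber, the OTA group received OTA alone at the same concentration, the CW14 group received the bacterium alone, and the control group received neither. Each group had 3 libraries, and the labels give neither the time of exposure nor whether replicates were separate cultures. The p-values therefore speak only of the scatter among these libraries, which can be technical.

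Replication starts where the origin recognition complex, CDC6 and CDT1 load the ring-shaped MCM helicase onto DNA. Kinases, MCM10, CDC45 and the GINS complex then turn that ring into an active helicase, and polymerases, the clamp PCNA with its loader, the single-strand binding complex RPA and the flap nuclease FEN1 copy both strands. Many of these genes are transcribed at the entry into S phase under E2F factors, and in the intestine the machinery is known from the dividing cells of the crypt, while differentiated enterocytes leave the cell cycle.

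Combined replicate 3 stood apart from the other libraries. It had the highest score on both leading principal components (83.3 and 51.7), a residual SD of 0.588 against 0.305 to 0.424 in the other 11 libraries, and the lowest relative depth, 0.471 of control replicate 1, against 0.642 to 1.6 elsewhere. Combined replicates 1 and 2 were also shallow, at 0.642 and 0.672, so low depth went with the combined group as a whole. OTA replicate 2 had 0.658, and the remaining libraries had 0.775 to 1.6. Leaving out combined replicate 3 does not remove this difference in depth. Absolute depth is unknown, since no counts were given. Counts of members called in comparisons with the combined group are therefore given with and without this library, as are values of many members that shifted markedly. The F test, the highest and lowest means and the counts of groups that did not overlap are given with all libraries only. Of 16 markers of the Caco-2 enterocyte-like epithelium, 14 averaged over 5 FPKM (EPCAM 403 to 707 FPKM), while CDX1 and SI were at or near 0 in every library, at most 0.185 and 0.148 FPKM. Of 17 markers of other cell types, 5 were at 0 in every library, PTPRC, KDR, DCN and SNAP25 among them, and only LYZ and CD14 averaged over 5 FPKM. The summed level of these 17 was 61.9 to 78.9 FPKM in the combined group, 69.1 to 82.1 with OTA, 41.8 to 47.8 with CW14 and 51.5 to 63.5 in controls. LYZ alone, at 26.9 to 67.7 FPKM, made up most of this sum, and 14 of the 17 stayed under 2 FPKM in every library. The part of the sum in the results was not tested.

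In control cells the most abundant replication transcripts were those of nucleotide supply and of the clamp. RRM2, the small subunit of ribonucleotide reductase, stood at 64.6 ± 8.41 FPKM (SD, n = 3), TK1, the cytosolic thymidine kinase, at 63.2 ± 2.66, and PCNA at 59.4 ± 10.2. These 3 levels did not differ beyond their spread. FEN1 followed at 45.8 ± 6.6 FPKM and TYMS, thymidylate synthase, at 38.7 ± 6.76. At the low end were 4 genes that were not tested. CDC45, a subunit of the active helicase, reached 0.591 FPKM at most and was listed at 0 in 5 libraries. POLE2, a subunit of polymerase epsilon, reached 0.684 FPKM at most and was listed at 0 in 2 libraries, while POLD1, the catalytic subunit of polymerase delta, lay between 0.157 and 1.27 FPKM. RPA3, the smallest RPA subunit, had 1.53, 2.29 and 1.18 FPKM in the combined libraries, 0.699, 1.06 and 0.727 with OTA, 0.784, 0.181 and 0.985 with CW14 and 0.841, 0.443 and 0.308 in controls. Its combined libraries lay above all others. The locus listed for RPA3 also holds UMAD1, and the sources used here do not say how fragments were divided between them.

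Across the 4 groups, 26 of the 44 tested members differed (limma F test, adjusted p under 0.05), against 37.5% of all tested genes. The combined group had the highest mean for 30 of the 44, against 37.4% of all tested genes, and CW14 had the lowest mean for 19, against 25.4%.

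The first comparison, OTA against control, isolates the toxin. The replication set split: CDC6, POLD3, GINS3 and FEN1 fell, RFC4, TYMS, POLD2 and RPA1 rose, and the MCM core and the origin recognition complex gave no call. The 8 called members are 18.2% of the 44, against 17.7% of all tested genes, so the share is near the background. By direction, 4 rose against a background of 4.82% and 4 fell against 12.9%. The members' median log2 difference was 0.04, against 0.03 over all tested genes. The OTA and control libraries did not overlap in 6 members that were higher with OTA and 9 that were lower, against 24.4% and 25.7% of all tested genes. In bulk RNA, fewer cycling cells and less RNA per cell cannot be told apart.

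CDC6, which loads the MCM ring with CDT1 (chromosome 17, 38444144 to 38459413, hg19 as deposited), had 6.73, 7.72 and 4.98 FPKM with OTA against 16.5, 15.9 and 13.2 in controls. Every OTA library lay below every control library. CDC6 fell by 1.13 on the log2 scale, the most of any member (SE 0.17, limma adjusted p = 0.000673). POLD3, an accessory subunit of polymerase delta (chromosome 11, 74303573 to 74354105), had 5.86, 5.25 and 6.45 FPKM with OTA against 12.6, 13.1 and 13.7 in controls. Its control libraries lay close together and far above the OTA libraries (limma log2 difference -1.05 ± 0.18 SE, adjusted p = 0.00169). CDC6 and POLD3 were called under all 21 alternatives run for this comparison.

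GINS3, a subunit of the GINS complex of the active helicase, had 4.96, 3.87 and 3.67 FPKM with OTA against 10.3, 7.38 and 6.99 in controls. The groups did not overlap, although control replicate 1 was well above the other 2 controls (limma log2 difference -0.83 ± 0.21 SE, adjusted p = 0.0177). FEN1, the nuclease that removes flaps from the lagging strand (chromosome 11, 61560107 to 61564714), had 28.5, 31.5 and 31.2 FPKM with OTA against 38.2, 48.7 and 50.5 in controls. OTA libraries were again all lower (limma log2 difference -0.57 ± 0.13 SE, adjusted p = 0.0101). The call of GINS3 was lost without control replicate 1, OTA replicate 2 or OTA replicate 3 (adjusted p at most 0.0765), and that of FEN1 without control replicate 3 or with quantile normalization (at most 0.0538).

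Among the risers, TYMS, which makes thymidylate, had 55.4, 63.2 and 63.1 FPKM with OTA against 32.8, 46.1 and 37.2 in controls. Each OTA library was above each control library (limma log2 difference 0.64 ± 0.15 SE, adjusted p = 0.0123). TYMS shares its listed locus with ENOSF1, CLUL1 and the antisense TYMSOS, and the labels do not say that the library kit marks strand, so that sense and antisense fragments cannot be told apart. POLD2, another accessory subunit of polymerase delta, had 14.3, 14.8 and 16.0 FPKM with OTA against 8.55, 10.1 and 9.55 in controls. The groups were separate and the direction was opposite to that of POLD3 (limma log2 difference 0.62 ± 0.18 SE, adjusted p = 0.0304).

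RPA1, the large subunit of RPA, had 23.5, 22.5 and 24.3 FPKM with OTA against 18.1, 18.2 and 13.9 in controls (limma log2 difference 0.47 ± 0.13 SE, adjusted p = 0.0287). RFC4, a clamp loader subunit whose listed locus also holds EIF4A2 and small RNA genes, had 3.77, 3.49 and 2.55 FPKM with OTA against 0.82, 2.28 and 1.62 in controls. Both genes had separate groups, but RFC4 was low and control replicate 1 was far below the other controls (limma log2 difference 0.76 ± 0.24 SE, adjusted p = 0.0455). RFC4 kept its call under only 8 of 20 alternatives, losing it with a pseudocount of 0.1 FPKM, with no filter and without any CW14 library among others (adjusted p at most 0.163). RPA1 kept its call under 16 of 21 and lost it without control replicate 3 or any OTA library, and with a replicate block (at most 0.13). POLD2 lost its call without any of the 6 OTA and control libraries (adjusted p at most 0.11), and TYMS without control replicate 1, control replicate 3 or OTA replicate 3 (at most 0.0564). Without control replicate 3 or without OTA replicate 3 none of the 4 rises was called, and the count of called members was 3 in each case, against 5 without OTA replicate 1 and 4 without OTA replicate 2 or control replicate 1.

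**Figure D1:**
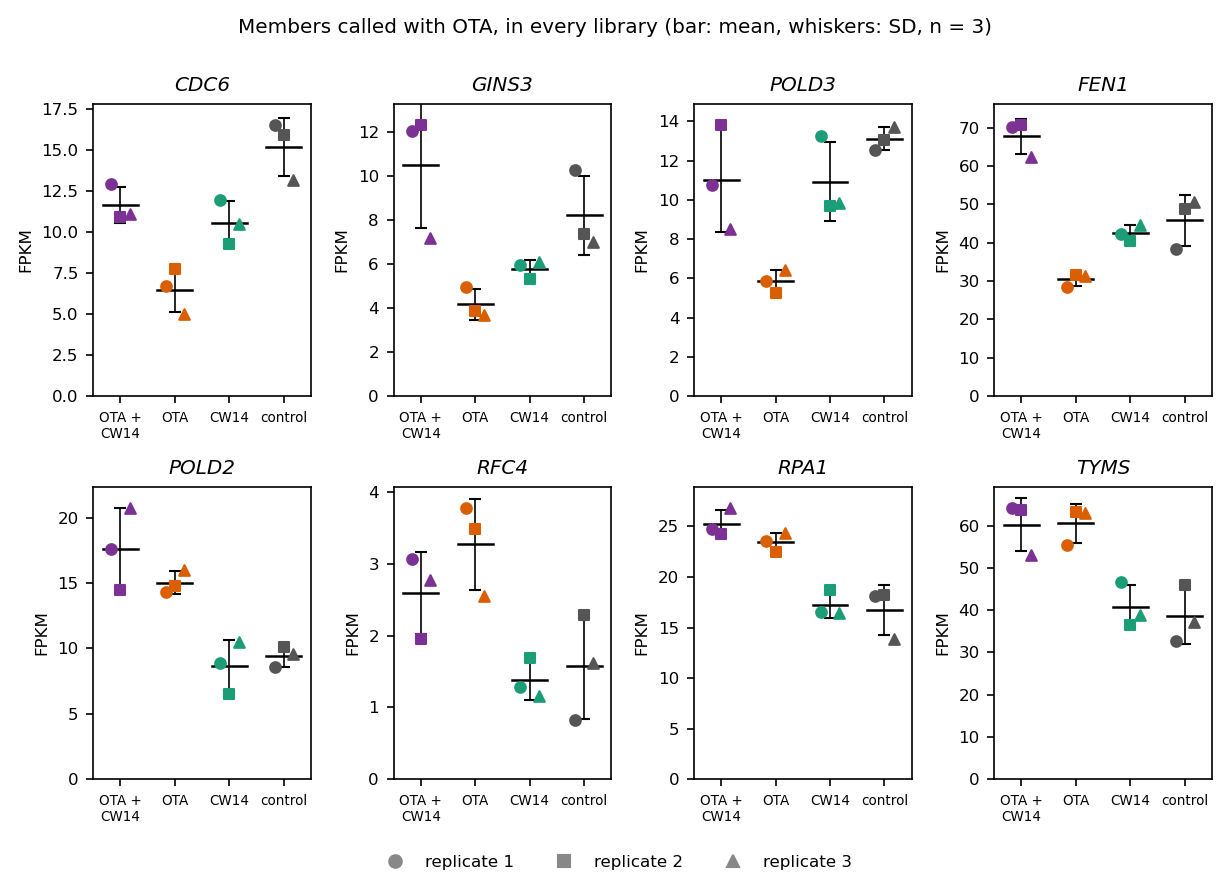
FPKM in every library (vertical axis, from 0) of the 8 members called in OTA against control, with OTA plus CW14, OTA, CW14 and control from left to right; the bar is the mean and the whiskers the SD of 3 libraries. CDC6, GINS3, POLD3 and FEN1 were lowest with OTA, while RPA1, POLD2, RFC4 and TYMS had higher means in both groups that received OTA than with CW14 or in controls.

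The other 36 tested members were not called. MCM7 (-0.45, adjusted p = 0.162) and MCM10 (-0.40, adjusted p = 0.0827) had negative log2 differences, with all OTA libraries below all controls. With combined replicate 3 left out of the fit, both were called lower with OTA (adjusted p = 0.00384 and 0.0381) and the count was 10, against 33.8% of all tested genes. Centring each library on its median moved the median of all genes by 0.11 toward higher values with OTA and the share of higher genes among all called genes to 46.2%, against 27.2% as deposited (40.2% with quantile normalization). Under that centring 8 members were called, 4 of them higher, against 1153 of all 12928 tested genes higher and 1342 lower.

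CW14 against control isolates the bacterium, and limma called none of the 44 members, against 0.364% of all tested genes. At an unadjusted p under 0.05 there were 2 members of the 44, against 858 of all 12928 tested genes, so the members' share was no larger. CDC6 had 11.9, 9.28 and 10.5 FPKM with CW14 against 16.5, 15.9 and 13.2 in controls, all lower but not past the threshold (limma log2 difference -0.49 ± 0.17 SE, adjusted p = 0.574). RRM1, the large subunit of ribonucleotide reductase, had 29.1, 23.9 and 27.1 FPKM with CW14 against 37.2, 32.1 and 32.1 in controls (limma log2 difference -0.33 ± 0.14 SE, adjusted p = 0.738). The groups were separate for both genes. The members' median log2 difference was -0.12, against -0.02 over all tested genes. The groups did not overlap in 3 members that were higher with CW14 and 7 that were lower, against 9.66% and 10.9% of all tested genes.

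The combined group against OTA asks what changed when CW14 was present with the toxin. Here 20 of the 44 members rose, all 6 MCM core subunits and 3 GINS subunits among them, and all 20 called members were higher in the combined group. That is 45.5% of the tested members, against 7.79% of all tested genes called higher, 8.22% called lower and 16.0% called in either direction. The members' median log2 difference was 0.42, against 0.03 over all tested genes. Combined and OTA libraries did not overlap in 23 members that were higher in the combined group and 1 that was lower, against 17.8% and 16.6% of all tested genes. Without combined replicate 3 the count was 18, all higher, against 21.2% of all tested genes in either direction. The share of all tested genes called higher in that fit is not given here. Of the 18, 17 were the same genes, PCNA, POLA1 and POLA2 lost their calls and GINS1 gained one.

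**Figure D2:**
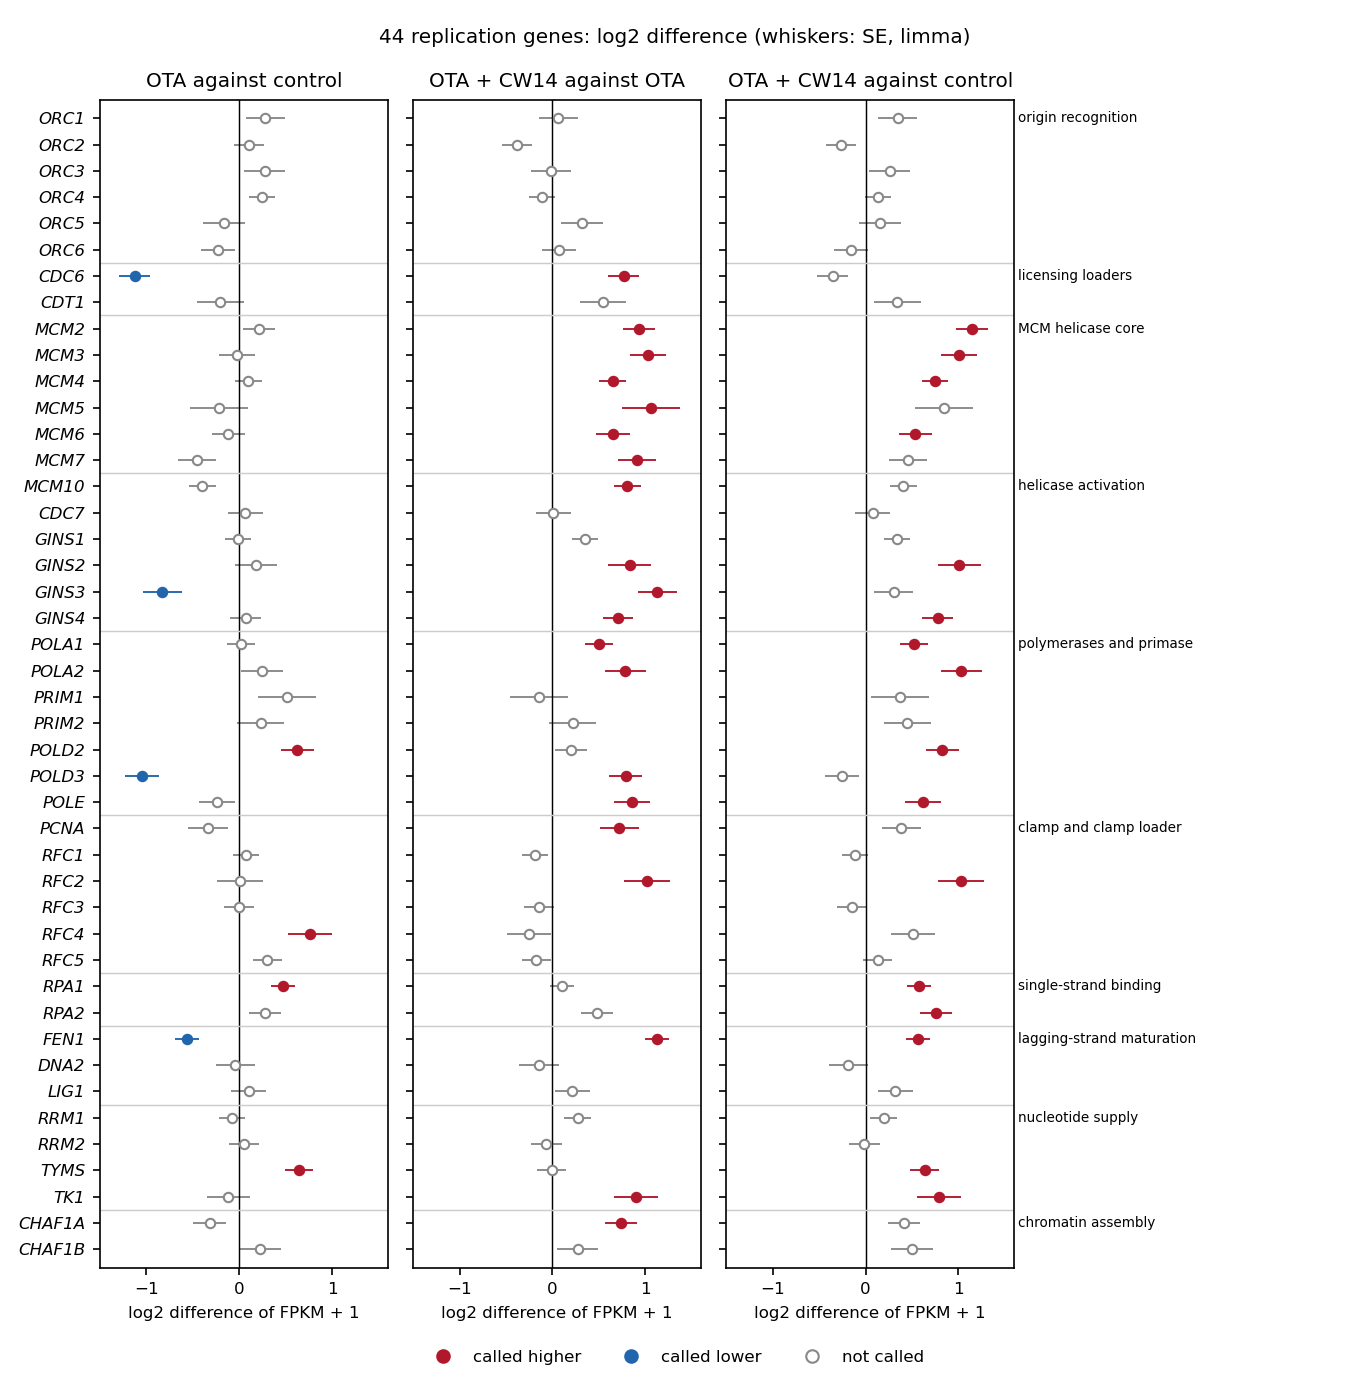
Log2 difference of FPKM + 1 (horizontal axis) of the 44 tested members, grouped by role, in OTA against control, OTA plus CW14 against OTA and OTA plus CW14 against control; whiskers are the SE from limma, and filled points were called at an adjusted p under 0.05. Calls are split between directions in OTA against control (4 higher and 4 lower), and the 20 and 16 calls of the other panels all lie above 0.

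All 6 subunits of the MCM core, the ring that unwinds DNA, rose against OTA. The summed level of MCM2 to MCM7 was 160, 151 and 235 FPKM in the combined libraries, 93.2, 100.2 and 94.5 with OTA, 97.4, 80.8 and 92.8 with CW14 and 91.9, 104 and 113 in controls. Every combined library lay above all others, and the groups without the combination overlapped. The mean of the combined group was 1.90 times that of OTA.

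By gene, MCM2 (chromosome 3, 127317198 to 127341278, hg19) had 27.0, 23.1 and 33.7 FPKM in the combined libraries, 13.5, 16.1 and 12.6 with OTA, 14.8, 10.9 and 14.4 with CW14 and 10.3, 12.2 and 13.5 in controls. The combined libraries were all above the other 9, whose groups overlapped (against OTA, limma log2 difference 0.93 ± 0.18 SE, adjusted p = 0.00771). MCM3 (chromosome 6, 52128810 to 52149679) had 33.7, 34.4 and 55.7 FPKM in the combined libraries, 18.9, 19.9 and 18.7 with OTA, 16.5, 15.7 and 16.3 with CW14 and 15.7, 20.3 and 23.1 in controls. Here again the combined libraries lay above all 9 others, with replicate 3 far above its group (limma log2 difference 1.03 ± 0.19 SE, adjusted p = 0.0072; 0.80 without replicate 3). MCM4 (chromosome 8, 48872761 to 48890719) had 43.3, 39.8 and 43.6 FPKM in the combined libraries, 24.8, 27.2 and 27.7 with OTA, 24.0, 18.3 and 23.5 with CW14 and 21.0, 27.0 and 26.7 in controls. Its 3 combined values agreed closely, replicate 3 included, and none overlapped another group (limma log2 difference 0.65 ± 0.14 SE, adjusted p = 0.0137).

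MCM5 (chromosome 22, 35796114 to 35820495), the lowest of the 6, had 5.26, 5.52 and 14.3 FPKM in the combined libraries, 3.5, 2.63 and 3.2 with OTA, 3.87, 2.23 and 2.32 with CW14 and 4.04, 3.02 and 4.34 in controls. The combined group was above all others, but replicate 3 exceeded the sum of the other 2 libraries of its group (limma log2 difference 1.06 ± 0.31 SE, adjusted p = 0.038), and the difference was 0.64 with adjusted p = 0.0499 without it. MCM6 (chromosome 2, 136597194 to 136634047) had 15.6, 18.2 and 26.8 FPKM in the combined libraries, 12.2, 12.2 and 12.1 with OTA, 11.7, 10.5 and 12.2 with CW14 and 11.6, 13.9 and 14.5 in controls. Its OTA libraries were nearly equal and the lowest combined library stood just above the highest control (limma log2 difference 0.65 ± 0.18 SE, adjusted p = 0.0305; 0.44 without replicate 3). MCM7 (chromosome 7, 99690349 to 99723128) had 34.9, 30.2 and 61.3 FPKM in the combined libraries, 20.3, 22.3 and 20.2 with OTA, 26.5, 23.2 and 24.0 with CW14 and 29.2, 27.2 and 30.6 in controls. The combined libraries exceeded OTA and CW14 but overlapped the controls, which were themselves all above OTA (limma log2 difference 0.91 ± 0.21 SE, adjusted p = 0.0156; 0.61 without replicate 3). The locus listed for MCM7 also holds AP4M1, TAF6, CNPY4 and 3 miRNA genes.

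**Figure D3:**
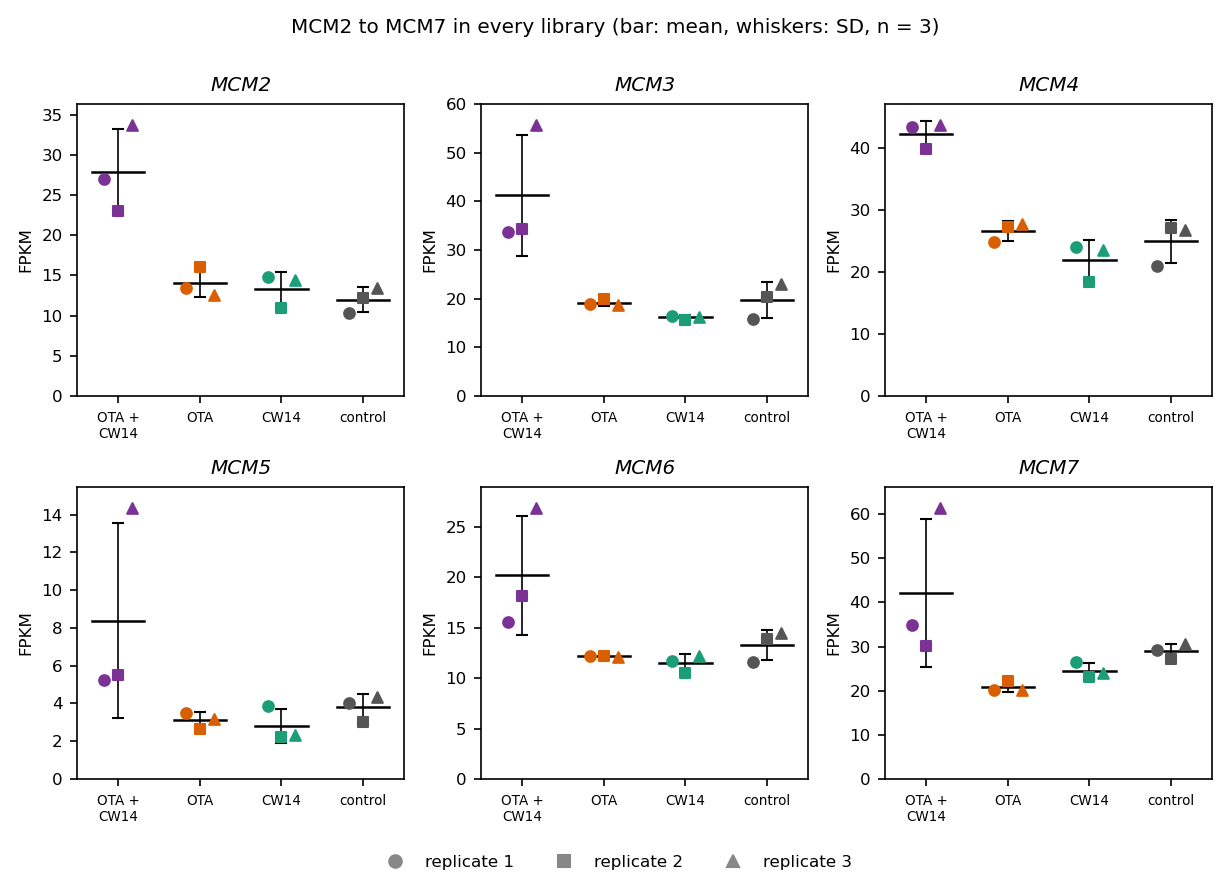
FPKM in every library (vertical axis, from 0) of MCM2 to MCM7, with OTA plus CW14, OTA, CW14 and control from left to right; the bar is the mean and the whiskers the SD of 3 libraries. The combined libraries lie above all 9 others for MCM2 to MCM6, and for MCM7 they lie above OTA and CW14 while overlapping the controls.

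Promoters of the set were compared for the letters of the E2F-type motif, because many replication genes are transcribed under E2F factors. RefSeq promoters (GRCh38.p14, from 250 bases before to 50 after each start) were matched by symbol for 41 of the 48 members, counting any listed start, and were searched on both strands for TTTCCCGC, TTTGGCGC, TTTCGCGC and TTTGCCGC. A palindromic TTTCGCGCGAAA or a TTTGGCGCGAAA counts as overlapping matches. A match was found in 19 of 41 members (46.3%), against 3.31% of all 35116 promoters, 3.99% of all gene symbols and 6.5% of the tested genes with a promoter. Among members called higher in combined against OTA, 11 of 16 with a promoter had a match, and among the other tested members 7 of 22. MCM4, MCM5, GINS4 and POLD3, also called, had no promoter entry. This split uses calls from the same data, and control by E2F was not tested. FEN1, TK1, RFC2, MCM10 and CHAF1A, all called, had none of these letters in the window. CCAAT was found in 24 of the 41 members (58.5%), against 34.6% of all promoters and 42.8% of the tested genes. A match is a description of letters, not a site.

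The stretches that follow carry the matches in members that the results turn on, each with 20 bases on either side, 5′ to 3′ on the gene's strand, with the matched letters in capitals. MCM2 (chr3:127598393-127598444, plus strand) holds the overlapping form once, and MCM6 (minus strand) holds it in an upstream stretch (chr2:135876564-135876615) and in a stretch nearer to the start (chr2:135876502-135876553).
MCM2: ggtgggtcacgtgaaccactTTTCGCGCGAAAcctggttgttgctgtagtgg
MCM6 upstream: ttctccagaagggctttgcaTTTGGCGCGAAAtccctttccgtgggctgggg
MCM6 nearer: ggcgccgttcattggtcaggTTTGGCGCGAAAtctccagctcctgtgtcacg

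MCM3 (minus strand, chr6:52284889-52284936 and chr6:52284719-52284766) and MCM7 (minus strand, chr7:100101557-100101604 and chr7:100101379-100101426) each have a pair of separate matches, shown for comparison with the overlapping form.
MCM3 upstream: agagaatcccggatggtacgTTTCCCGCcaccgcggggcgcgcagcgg
MCM3 nearer: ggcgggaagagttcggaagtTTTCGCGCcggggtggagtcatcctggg
MCM7 upstream: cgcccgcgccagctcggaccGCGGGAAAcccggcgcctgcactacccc
MCM7 nearer: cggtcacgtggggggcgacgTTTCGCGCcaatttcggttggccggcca

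GINS2 (chr16:85688958-85689005, minus strand), GINS3 (chr16:58392446-58392493, plus strand), PCNA (chr20:5126654-5126701, minus strand), POLA2 (chr11:65261889-65261936, plus strand) and CDC6 (chr17:40287866-40287913, plus strand) have 1 match each. These 5 genes hold 3 of the spellings searched, with GCGGGAAA being TTTCCCGC read on the other strand.
GINS2: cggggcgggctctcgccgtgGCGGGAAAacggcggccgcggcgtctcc
GINS3: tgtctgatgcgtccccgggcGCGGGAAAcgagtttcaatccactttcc
PCNA: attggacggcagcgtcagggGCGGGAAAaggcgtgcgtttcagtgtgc
POLA2: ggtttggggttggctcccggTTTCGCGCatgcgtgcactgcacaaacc
CDC6: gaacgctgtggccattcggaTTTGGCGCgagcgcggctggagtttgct

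The loaders and activators of the helicase followed in part. CDC6 had 12.9, 10.9 and 11.1 FPKM in the combined libraries, all above OTA, all below controls, and overlapping CW14 (against OTA, limma log2 difference 0.77 ± 0.17 SE, adjusted p = 0.0134). CDT1, the other loader, had 27.3, 26.1 and 62.3 FPKM in the combined libraries against 23.4, 23.8 and 24.9 with OTA and was not called (limma log2 difference 0.55 ± 0.25 SE, adjusted p = 0.153; 0.15 without replicate 3). Replicate 3 was far above the other 2 libraries of its group, which lay just above OTA. MCM10, which helps to start the helicase, had 4.9, 5.6 and 5.65 FPKM in the combined libraries, 2.6, 2.69 and 2.64 with OTA, 4.46, 4.01 and 3.58 with CW14 and 3.5, 4.36 and 3.6 in controls. The combined libraries were the highest of the 12, and OTA the lowest (limma log2 difference 0.81 ± 0.15 SE, adjusted p = 0.00668).

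Of the GINS subunits, which hold the active helicase together, GINS3 had 12.1, 12.3 and 7.19 FPKM in the combined libraries against 4.96, 3.87 and 3.67 with OTA. Replicates 1 and 2 were above every other library and replicate 3 fell among the controls (limma log2 difference 1.13 ± 0.21 SE, adjusted p = 0.0072; 1.36 without replicate 3). GINS2 had 38.2, 36.2 and 67.8 FPKM in the combined libraries, 24.8, 22.6 and 28.2 with OTA, 18.5, 16.6 and 24.1 with CW14 and 20.7, 19.8 and 26.1 in controls. All combined libraries were above the other 9, replicate 3 by far (limma log2 difference 0.83 ± 0.23 SE, adjusted p = 0.0311; 0.55 without it). GINS4 had 9.35, 9.25 and 6.77 FPKM in the combined libraries, 4.24, 5.4 and 4.63 with OTA, 5.53, 4.39 and 5.11 with CW14 and 4.04, 4.36 and 5.07 in controls. Here replicate 3 was the lowest of its group and still above the other 9 (limma log2 difference 0.71 ± 0.17 SE, adjusted p = 0.017). The locus listed for GINS4 also holds AGPAT6 and LOC102723729. GINS1 was not called (limma log2 difference 0.35 ± 0.14 SE, adjusted p = 0.0995), and CDC7, the kinase that phosphorylates the MCM ring, stood near OTA (log2 difference 0.01).

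Among polymerase subunits, POLE, the catalytic subunit of the leading-strand polymerase epsilon, had 7.97, 8.12 and 12.8 FPKM in the combined libraries, 4.83, 4.25 and 5.18 with OTA, 4.07, 4.85 and 5.82 with CW14 and 5.09, 6.26 and 6.09 in controls. The combined libraries were the highest (limma log2 difference 0.86 ± 0.19 SE, adjusted p = 0.0144). POLA2, the accessory subunit of polymerase alpha, had 4.44, 5.65 and 8.3 FPKM in the combined libraries, 3.35, 2.8 and 2.99 with OTA, 2.44, 2.02 and 3.34 with CW14 and 1.84, 2.89 and 2.57 in controls. Again the combined libraries lay above the others, and without replicate 3 the difference was 0.57 (adjusted p = 0.0658), against 0.78 with it (adjusted p = 0.0349). POLA1, the catalytic subunit of polymerase alpha, had 2.91, 2.62 and 3.35 FPKM in the combined libraries against 1.69, 1.95 and 1.74 with OTA, a small and separate difference (limma log2 difference 0.50 ± 0.15 SE, adjusted p = 0.0457) that was also lost without replicate 3 (adjusted p = 0.0632). The locus listed for POLA1 also holds SCARNA23.

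POLD3 had 10.8, 13.8 and 8.51 FPKM in the combined libraries against 5.86, 5.25 and 6.45 with OTA. All combined libraries were above OTA and overlapped CW14 (13.3, 9.71 and 9.84) and controls (limma log2 difference 0.79 ± 0.18 SE, adjusted p = 0.0148). POLD2 was not called, at 17.6, 14.4 and 20.7 FPKM in the combined libraries against 14.3, 14.8 and 16.0 with OTA, which overlapped. The primase subunits PRIM1 and PRIM2 lay at 0.509 to 3.06 FPKM in all 12 libraries and were called in no comparison.

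At the clamp, PCNA had 67.7, 66.2 and 103 FPKM in the combined libraries, 44.6, 42.8 and 52.3 with OTA, 46.3, 32.7 and 53.8 with CW14 and 53.9, 71.1 and 53.1 in controls. The combined libraries were above all OTA and CW14 libraries, replicate 3 most of all, and overlapped control replicate 2 (limma log2 difference 0.72 ± 0.21 SE, adjusted p = 0.0406). Its call was lost without combined replicate 3 (adjusted p = 0.0755) and its antisense PCNA-AS1 lies at the same locus. RFC2, a small subunit of the clamp loader, had 16.5, 14.3 and 32.1 FPKM in the combined libraries, 9.31, 9.89 and 8.56 with OTA, 10.2, 10.2 and 7.63 with CW14 and 8.14, 10.8 and 8.8 in controls. The combined libraries were the highest and the other groups overlapped (limma log2 difference 1.02 ± 0.25 SE, adjusted p = 0.0198; 0.68 without replicate 3). The locus listed for RFC2 spans 32 other entries of the table, with the same limit on the division of fragments. The other 4 loader subunits, RFC1, RFC3, RFC4 and RFC5, had log2 differences of -0.25 to -0.15 and were not called.

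On the lagging strand, FEN1 had 70.1, 70.6 and 62.3 FPKM in the combined libraries against 28.5, 31.5 and 31.2 with OTA, 42.3, 40.5 and 44.6 with CW14 and 38.2, 48.7 and 50.5 in controls. The 4 groups separated into combined at the top, CW14 and control overlapping in the middle, and OTA at the bottom (combined against OTA, limma log2 difference 1.13 ± 0.13 SE, adjusted p = 0.00194). FEN1 alone of the 20 was called under all 22 alternatives run, and its difference was 1.19 without combined replicate 3. DNA2, a nuclease that trims long flaps, and LIG1, the ligase that seals fragments, were not called (log2 differences -0.14 and 0.22).

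For nucleotide supply, TK1, the salvage kinase for thymidine, had 96.2, 80.0 and 172 FPKM in the combined libraries, 67.5, 52.1 and 56.1 with OTA, 52.4, 38.2 and 48.1 with CW14 and 60.8, 62.7 and 66.1 in controls. All combined libraries were above the others, replicate 3 by far (limma log2 difference 0.90 ± 0.24 SE, adjusted p = 0.0255; 0.58 without it). RRM1 (0.27), RRM2 (-0.06) and TYMS (-0.01) were not called. CHAF1A, the large subunit of the complex that places histones on new DNA, had 14.1, 13.2 and 15.8 FPKM in the combined libraries, 8.63, 8.68 and 7.33 with OTA, 10.5, 6.75 and 9.36 with CW14 and 8.73, 11.8 and 11.1 in controls. Its combined libraries were the highest of the 12 (limma log2 difference 0.74 ± 0.17 SE, adjusted p = 0.0176), and its partner CHAF1B was not called (log2 difference 0.27; 0.51 without combined replicate 3).

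The single-strand binding and origin recognition genes gave no call in this comparison. RPA2, the middle RPA subunit, had 29.5, 26.9 and 37.4 FPKM in the combined libraries, 19.4, 21.0 and 25.8 with OTA, 22.4, 19.8 and 15.2 with CW14 and 16.8, 18.9 and 18.1 in controls. Its combined libraries lay above all others without passing the threshold against OTA (limma log2 difference 0.48 ± 0.17 SE, adjusted p = 0.0774). The 6 origin recognition subunits had log2 differences of -0.38 to 0.32 against OTA. At an unadjusted p under 0.05 only ORC2 was picked out (limma adjusted p = 0.127), against 4293 of all 12928 tested genes. No ORC gene was called in any of the 6 comparisons. ORC2, the member with the lowest difference, had 8.91, 9.39 and 6.14 FPKM in the combined libraries against 9.56, 11.5 and 11.2 with OTA.

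Several members were called in none of the 6 comparisons, and their levels are given as the range over all 12 libraries. Among origin recognition subunits, ORC1 lay at 2.49 to 5.78 FPKM, ORC3 lay at 2.59 to 5.41 FPKM, ORC4 lay at 5.34 to 7.31 FPKM, ORC5 lay at 2.82 to 6.19 FPKM and ORC6 lay at 16.8 to 27.3 FPKM. CDC7 (5.61 to 8.88 FPKM) and the loader subunits RFC1, the largest (14.1 to 21.0 FPKM), RFC3 (17.4 to 25.7 FPKM) and RFC5 (13.1 to 22.5 FPKM) overlapped between the combined and OTA groups. So did DNA2 (6.35 to 12.4 FPKM), LIG1 (1.54 to 3.03 FPKM), RRM2 (52.1 to 76.6 FPKM) and CHAF1B (2.42 to 5.81 FPKM), the middle subunit of the complex that holds CHAF1A. The locus listed for ORC4 also holds ACVR2A and MBD5, that of RFC1 11 other entries, and that of PRIM2 MIR548U.

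**Figure D4:**
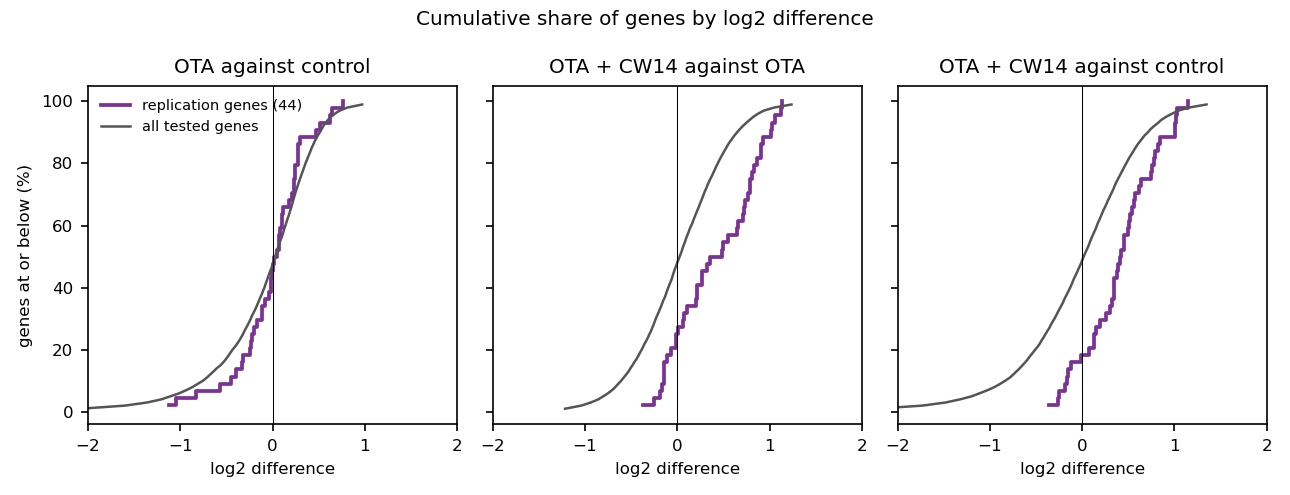
Share of genes (vertical axis, percent) at or below each log2 difference (horizontal axis) for the 44 tested members (purple steps) and all 12928 tested genes (grey line), in OTA against control, OTA plus CW14 against OTA and OTA plus CW14 against control. The curves nearly coincide around 0 in OTA against control (medians 0.04 for the members and 0.03 for all genes), and the members' curve lies to the right in the other panels (medians 0.42 and 0.41, against 0.03 and 0.02).

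The size of the count varied with which libraries were fitted. With only the combined and OTA libraries fitted, 1 member (FEN1) was called, and with the same 2 groups but without combined replicate 3 the count was 18. Leaving out OTA replicate 1, 2 or 3 gave 10, 9 and 8 called members. Over all tested genes 16.0% were called in either direction with all libraries and 21.2% without combined replicate 3. No such share is given for the fits of only 2 groups or without an OTA library. Among all called genes, 48.6% were higher in the combined group, and 36.7% after median-centring.

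The combined group against control asks where both treatments together left the cells. Of the members, 16 rose and all called members were higher, against 12.0% of all tested genes called higher, 16.8% called lower and 28.8% in either direction. Their median log2 difference was 0.41, against 0.02 over all tested genes, and 21 members had separate groups with the combined libraries higher and 2 with them lower, against 19.1% and 22.8% of all tested genes. MCM2 had the largest difference (limma log2 difference 1.15 ± 0.18 SE, adjusted p = 0.000707), and MCM3, MCM4 and MCM6 also rose, by 1.01, 0.75 and 0.54 on the log2 scale. MCM5 (0.84, adjusted p = 0.0591) and MCM7 (0.46, adjusted p = 0.118) were not called, and had 0.42 and 0.16 without combined replicate 3. MCM2, MCM3 and MCM4 then had 1.01, 0.78 and 0.72, all still called.

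Polymerase subunits POLA2 (limma log2 difference 1.03 ± 0.22 SE, adjusted p = 0.00556), POLD2 (0.82, adjusted p = 0.00546), POLE (0.62, adjusted p = 0.0313) and POLA1 (0.52, adjusted p = 0.0251) were higher in the combined group than in controls. So were GINS2 (1.01, adjusted p = 0.007), GINS4 (0.78, adjusted p = 0.00513), RFC2 (1.02, adjusted p = 0.0101), FEN1 (0.56, adjusted p = 0.00778) and TK1 (0.79, adjusted p = 0.0264). Of these, TK1 had 0.47, RFC2 0.68, GINS2 0.73 and POLA2 0.82 without combined replicate 3, all still called. FEN1 and GINS4 then had larger values, 0.62 and 0.91. POLD2 had 17.6, 14.4 and 20.7 FPKM in the combined libraries against 8.55, 10.1 and 9.55 in controls, with no overlap. RPA1 had 24.8, 24.3 and 26.8 FPKM in the combined libraries against 18.1, 18.2 and 13.9 in controls, and TYMS 64.1, 63.7 and 53.0 against 32.8, 46.1 and 37.2. For RPA1 and TYMS the combined libraries were all above the controls and overlapped OTA (limma log2 difference 0.58 ± 0.13 SE, adjusted p = 0.00773; limma log2 difference 0.64 ± 0.15 SE, adjusted p = 0.00947). RPA2 rose as well (limma log2 difference 0.76 ± 0.17 SE, adjusted p = 0.00761) and had 0.62 without combined replicate 3.

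Leaving out combined replicate 3 gave 17 called members, all higher, against 32.7% of all tested genes in either direction. The share of all tested genes called higher in that fit is not given here. MCM6 (0.32, adjusted p = 0.0685) and POLE (0.41, adjusted p = 0.0659) lost their calls, and CHAF1B, GINS1 and GINS3 gained one. With only the 6 libraries of these groups fitted, 7 were called, with no share of all tested genes given for that fit.

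The 4 genes that fell with OTA alone can be set side by side, the comparisons sharing the OTA or the control libraries. FEN1 had log2 differences of -0.57 in OTA against control, 1.13 in combined against OTA and 0.56 in combined against control, called in each. GINS3 had -0.83, 1.13 and 0.30 in the same order, the last not called (adjusted p = 0.293). CDC6 had -1.13, 0.77 and -0.36, and POLD3 had -1.05, 0.79 and -0.25, the last values again not called (adjusted p = 0.13 and 0.303). Without combined replicate 3 the value against control was 0.53 for GINS3 (adjusted p = 0.0346, called), -0.10 for POLD3, -0.33 for CDC6 and 0.62 for FEN1. A p above the threshold does not show that the combined group and the controls were alike.

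Against CW14 alone, 22 members were called in the combined group and all were higher, against 14.8% of all tested genes called higher, 17.5% called lower and 32.3% in either direction. The median log2 difference was 0.56, against 0.02 over all tested genes. All 6 MCM subunits rose, from 0.69 for MCM7 to 1.26 for MCM3, and so did all 4 GINS subunits, from 0.60 for GINS1 to 1.18 for GINS2. TK1 (limma log2 difference 1.24 ± 0.24 SE, adjusted p = 0.00247) and RRM1 (limma log2 difference 0.53 ± 0.14 SE, adjusted p = 0.0168) rose too. RRM1 had 36.7, 34.1 and 46.7 FPKM in the combined libraries against 29.1, 23.9 and 27.1 with CW14, with no overlap. CDC6 and POLD3, by contrast with the OTA comparison, were not called here, with log2 differences of 0.13 and 0.00. Leaving out combined replicate 3 gave 23, all higher, against 33.7% of all tested genes in either direction. With only these 6 libraries fitted, 7 were called, with no share of all tested genes given. Without combined replicate 3 the MCM subunits ran from 0.39 for MCM7 to 1.03 for MCM3, with MCM5 at 0.77 against 1.19 with it, TK1 had 0.92 and RRM1 0.40.

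The interaction tests whether the effect of OTA differed with and without CW14, as the difference of combined minus CW14 less that of OTA minus control. Of the members, 7 were called, each with a higher effect of OTA when CW14 was present, against 1.85% of all tested genes called higher, 1.49% called lower and 3.33% in either direction. The members' median was 0.51, against 0.04 over all tested genes. At an unadjusted p under 0.05 there were 23 members of the 44, against 3198 of all 12928 tested genes. Of all called genes 55.5% were higher, and 39.5% after median-centring, where 4 members were called. GINS3 had the largest value (limma log2 difference 1.56 ± 0.30 SE, adjusted p = 0.0219). FEN1 had 1.23 (adjusted p = 0.0132), the smallest p of the set: with CW14 present, OTA went with a difference of 0.66, and without it with -0.57. CDC6 (1.25, adjusted p = 0.0219), MCM3 (1.28, adjusted p = 0.0319), POLD3 (1.05, adjusted p = 0.0473), TK1 (1.36, adjusted p = 0.0489) and MCM4 (0.83, adjusted p = 0.0489) were also called. The other 4 MCM subunits had values of 0.79 to 1.41 and adjusted p between 0.053 and 0.0881. When combined replicate 3 was left out, MCM5 had 0.99, MCM6 0.63 and MCM7 0.84, all then called (limma adjusted p = 0.0427, 0.0336 and 0.00759). MCM2 then had 0.65 and was not called (limma adjusted p = 0.0729). Without combined replicate 3 the 7 called members kept their calls, with values from 0.80 for MCM4 to 1.79 for GINS3, and TK1 had 1.04.

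The count of members called in the interaction was 16 without combined replicate 3 (against 12.3% of all tested genes in either direction) or combined replicate 2. It was 2 without combined replicate 1, CW14 replicate 1 or OTA replicate 1, 1 without CW14 replicate 2, OTA replicate 2 or OTA replicate 3, and 3 without CW14 replicate 3. Without control replicate 2 or 3 limma called none, while 20 and 19 members had an unadjusted p under 0.05. With all libraries 3198 of all 12928 tested genes had such a p. Apart from the 12.3%, shares of all tested genes are not given for the fits of this paragraph.

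Values of combined replicate 3 in the replication set varied with base composition. Its log2(FPKM + 1) minus the mean of replicates 1 and 2 ranged from -0.72 for CHAF1B to 1.26 for MCM5, with a median of 0.13. Across the 44 members this deviation had a Spearman rho of 0.54 with the GC content of the gene's transcripts, against 0.45 across 11429 tested genes with a GC value. Genes of a sample are not independent replicates, and this is a description. CDT1, at 66.0% GC, and TK1, MCM5 and MCM7, at 58.1% to 61.4%, were among the highest in replicate 3. Other members departed from this relation. MCM6 and PCNA, at 43.1% and 45.2% GC, had deviations of 0.64 and 0.61, while POLD2 and LIG1, at 59.1% and 60.2%, had 0.36 and 0.33. MCM4, FEN1 and MCM10, by contrast, had replicate 3 values close to or below those of replicates 1 and 2, and their calls against OTA held without it. The part of GC content or depth in the other differences was not tested.

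**Figure D5:**
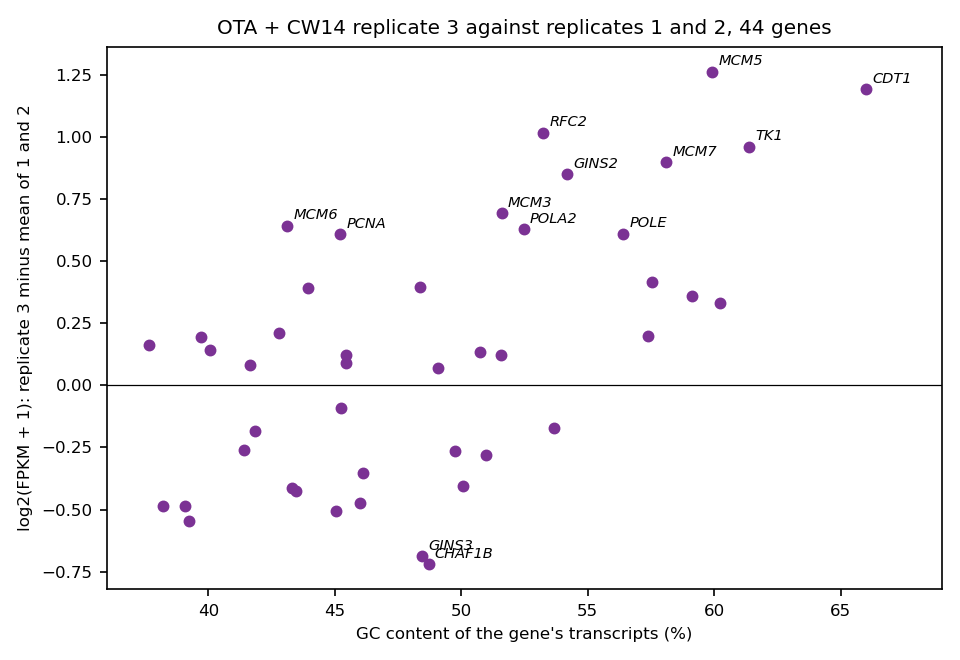
Log2(FPKM + 1) of OTA plus CW14 replicate 3 minus the mean of replicates 1 and 2 (vertical axis) against the GC content of the gene's transcripts in percent (horizontal axis), 1 point for each of the 44 tested members; names mark deviations beyond 0.6. CDT1, MCM5, TK1, MCM7, RFC2 and GINS2 lie highest, most of them at a high GC content, and CHAF1B and GINS3 lowest.

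Other genes around the replication fork were read from 4 lists. Of 45 tested partners in replisome, initiation and licensing, 1 rose (2.22%) and 1 fell (2.22%) in OTA against control, against 4.82% and 12.9% of all tested genes. In combined against OTA 6 rose (13.3%) and 1 fell (2.22%), against 7.79% and 8.22%, and in combined against control 9 rose (20%) and 2 fell (4.44%), against 12.0% and 16.8%. The medians were 0.06, 0.16 and 0.19, against 0.03, 0.03 and 0.02 over all tested genes. RBBP7, a histone-binding subunit, rose with OTA (0.43), and DBF4, the activating subunit of CDC7, fell (-0.42, adjusted p = 0.0419). In combined against control the largest rises were RNASEH2A, a subunit of RNase H2 that removes RNA from DNA (1.47), CHTF18, of an alternative clamp loader (1.40), and NASP, a histone chaperone (0.89). Without combined replicate 3 RNASEH2A had 0.99. CHTF18 had 3.12, 3.87 and 6.94 FPKM in the combined libraries, with replicate 3 the highest. TOP1, which relaxes DNA ahead of the fork, fell (limma log2 difference -0.81 ± 0.14 SE, adjusted p = 0.00178), as did DBF4 (-0.67). When combined replicate 3 was left out, 5 rose and 5 fell in OTA against control. In combined against OTA 8 then rose and 2 fell, and in combined against control 10 rose and 4 fell. The shares of all tested genes called in either direction were then 33.8%, 21.2% and 32.7%.

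Of 39 genes of nucleotide synthesis and salvage, 3 rose (7.69%) and 1 fell (2.56%) in OTA against control, against 4.82% and 12.9% of all tested genes. In combined against OTA 3 rose (7.69%) and 2 fell (5.13%), near the 7.79% and 8.22% of all genes, and in combined against control 13 rose (33.3%) and 1 fell (2.56%), against 12.0% and 16.8%. The medians were 0.27, 0.26 and 0.31. MTHFD2, a mitochondrial folate enzyme, had 73.1, 69.1 and 63.0 FPKM in the combined libraries, 125, 107 and 96.3 with OTA, 127, 127 and 117 with CW14 and 187, 164 and 200.1 in controls. It was lowest in the combined libraries and highest in controls (combined against control, limma log2 difference -1.41 ± 0.13 SE, adjusted p = 1.40e-05; OTA against control, -0.75). IMPDH2 (0.69) and CMPK1 (0.57), enzymes of purine and pyrimidine nucleotides, were among those that rose with OTA. In combined against control the largest rises were SAMHD1, which breaks down deoxynucleotides (1.17), NME1 (1.04) and APRT (0.97). NME1 and APRT were far higher in combined replicate 3 than in replicates 1 and 2, and had 0.63 and 0.51 without it. Without that library 12 genes rose and 2 fell in OTA against control. In combined against OTA 5 then rose and 3 fell, and in combined against control 12 rose and 1 fell. Over all tested genes 33.8%, 21.2% and 32.7% were then called in either direction, in the same order.

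Of 29 tested E2F, RB and S phase entry regulators, 9 were called in OTA against control (31.0%), all lower, against 12.9% of all tested genes called lower. In combined against OTA 6 rose (20.7%) and 3 fell (10.3%), against 7.79% and 8.22%, and in combined against control 1 rose (3.45%) and 8 fell (27.6%), against 12.0% and 16.8%. The medians were -0.22, 0.30 and -0.07, against 0.03, 0.03 and 0.02 over all tested genes. E2F2, a transcriptional activator of S phase genes, had 2.35, 2.59 and 3.62 FPKM in the combined libraries, 1.06, 1.23 and 1.2 with OTA, 3.63, 2.7 and 3.08 with CW14 and 4.49, 4.2 and 3.94 in controls. All OTA libraries were the lowest and the combined libraries lay below all controls (limma log2 difference -1.27 ± 0.17 SE, adjusted p = 0.000341 in OTA against control, 0.82 in combined against OTA). CDC25A, a phosphatase that activates CDK2, had 7.38, 7.98 and 5.94 FPKM in the combined libraries, 2.49, 3.12 and 3.3 with OTA, 7.91, 8.77 and 10.3 with CW14 and 7.82, 9.54 and 10.8 in controls. OTA was lowest here too, and the combined libraries overlapped controls (limma log2 difference -1.38 ± 0.17 SE, adjusted p = 0.000162 in OTA against control, 1.03 in combined against OTA).

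FBXW7, the ubiquitin ligase subunit for cyclin E, had 3.25, 4.18 and 18.6 FPKM in the combined libraries, 3.98, 4.36 and 3.15 with OTA, 14.7, 15.3 and 13.3 with CW14 and 19.3, 13.8 and 17.7 in controls, so that combined replicate 3 fell among the controls while replicates 1 and 2 lay with OTA (log2 difference -1.23 in combined against control, -1.92 without that library). CCNE2 (-1.04) and E2F3 (-0.94) also fell in combined against control. MYBL2, a transcription factor of the cell cycle, had 66.9, 53.4 and 121 FPKM in the combined libraries, 39.0, 37.8 and 39.0 with OTA, 28.3, 23.6 and 34.5 with CW14 and 32.8, 36.9 and 37.8 in controls and was the only riser of the list there (limma log2 difference 1.06 ± 0.24 SE, adjusted p = 0.00748; 0.73 without combined replicate 3). Without that library 4 genes rose and 8 fell in combined against control, and 9 rose and 3 fell in combined against OTA. Of all tested genes 32.7% and 21.2% were then called in either direction.

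Of 22 markers of G2 and mitosis, 3 were called in OTA against control (13.6%), all lower and near the 12.9% of all tested genes called lower. In combined against OTA 1 rose and 1 fell (4.55% each, against 7.79% and 8.22%), and in combined against control 1 rose (4.55%, against 12.0%) and 4 fell (18.2%, near the background of 16.8%). The medians were -0.05, -0.11 and -0.12. CENPA, the centromeric histone (-0.68), KIF11, a spindle motor (-0.40), and AURKA, a mitotic kinase (-0.38), fell with OTA. In combined against control CENPA (-1.21, adjusted p = 0.0009), AURKA (-0.77) and CDK1 (-0.68) fell. FOXM1, a transcription factor of G2 genes, had 87.5, 85.2 and 100.2 FPKM in the combined libraries, 59.4, 54.8 and 56.5 with OTA, 45.1, 41.9 and 50.3 with CW14 and 50.7, 56.8 and 53.4 in controls, with the combined libraries above all others (against control, limma log2 difference 0.75 ± 0.12 SE, adjusted p = 0.000796). Without combined replicate 3 the counts were 2 rises and 2 falls in combined against OTA, and 1 rise and 6 falls in combined against control. Of all tested genes 21.2% and 32.7% were then called in either direction.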

How the data were processed

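RNA-seq expression values were given as gene-level FPKM, computed by the authors for all 12 libraries and deposited in a single table that lists gene loci on hg19. Cufflinks 2.2.1, Cuffdiff, Cuffnorm, TopHat2 2.0.13, cutadapt 1.10 and the hg19 build are named per the submitters' processing notes. What each did, which annotation was used and how libraries were scaled to each other is not given in the sources used here. Counts are absent, so relative depth was estimated from the steps between low FPKM values, and no counting interval is given.

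FPKM values were tested as log2(FPKM + 1) with limma 3.58.1 in R 4.3.3, which understates changes of low genes. Genes averaging 1 FPKM or more over the libraries were kept, all 4 groups shared an estimate of the spread, and moderated two-sided p-values were adjusted by the Benjamini-Hochberg method over all 12928 genes tested, with a threshold of 0.05. The procedure was checked on simulated data. Alternatives were a pseudocount of 0.1 FPKM, no filter, a minimum mean of 5 FPKM, median-centring, quantile normalization, no intensity trend, a replicate block, only the compared groups and leaving out each library. Fits without combined replicate 3 joined to another choice were added after seeing the data.

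Members, pathway lists and markers were chosen with earlier results of these data known. Values in every library are given for the MCM core, PCNA and members called in OTA against control, combined against OTA, combined against control or the interaction, up to the 10 largest in each direction. Of each pathway list, up to 3 called rises and 3 called falls are named in OTA against control and in combined against control; some list genes are not reported here. Promoters came from RefSeq (GRCh38.p14), from 250 bases before to 50 after each start. Whether hg19 loci count from 0 or 1 is not stated. MCM10, CHAF1A, POLA1, CDT1, RRM1, RPA3 and ORC2 were named after their values were seen.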

Additional observations from a re-analysis of the deposited data

Results flagged for a closer look

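For 7 members the effect of OTA differed with and without CW14 by the test of that difference, the limma interaction over all 12928 genes tested. On the log2 scale the effect with CW14 minus the effect without it was 1.56 for GINS3 (adjusted p = 0.0219), 1.36 for TK1 (0.0489), 1.28 for MCM3 (0.0319), 1.25 for CDC6 (0.0219), 1.23 for FEN1 (0.0132), 1.05 for POLD3 (0.0473) and 0.83 for MCM4 (0.0489). In each of the 7 the value was positive. None of these calls held under every alternative: FEN1 kept its call under 18 of 20, and without control replicate 2 or 3 none of the 7 was called. Groups of 3 libraries are too small for a check of single libraries as far from their group.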

How the results depend on the processing

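No called difference of a member changed its sign under any alternative run. Some that were not called did: in combined against OTA, RRM2, TYMS and DNA2 had 0.08, 0.08 and 0.02 without combined replicate 3, against -0.06, -0.01 and -0.14 with it. The members' median in OTA against control was -0.01 with a mean of at least 5 FPKM, against 0.04. Called members in OTA against control numbered 3 to 10 with each library left out in turn, against 8 with all, and those in combined against OTA 8 to 22, against 20. In combined against control the range was 12 to 18, in combined against CW14 15 to 25, and for the interaction 0 to 16, against 7. With only the compared groups fitted, 1 member was called in combined against OTA, 7 in combined against control and 7 in combined against CW14. The same fits without combined replicate 3, added after seeing the data, gave 18, 14 and 15. The interaction had 3 called members with no filter, 11 with a mean of at least 5 FPKM, 4 with median-centring, 4 with no intensity trend and 13 with median-centring and without combined replicate 3 (the last added after seeing the data). Calls over all tested genes moved too. With all libraries they were 17.7% in OTA against control and 16.0% in combined against OTA. Without combined replicate 3 they were 33.8% and 21.2%. Shares of all tested genes under most alternatives are not given here. The cause of these moves was not tested. No member was called in CW14 against control under any alternative, where 0 to 8 members had an unadjusted p under 0.05. In the main fit 858 of all 12928 tested genes had such a p.

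Calls kept under every alternative were those of CDC6 and POLD3 in OTA against control, FEN1 in combined against OTA, 7 members in combined against control and 7 in combined against CW14. With a replicate block, 6 members were called in OTA against control, 0 in CW14 against control, 19 in combined against OTA, 16 in combined against control, 22 in combined against CW14, 7 in the interaction and 23 in the F test, against 26 without it. Deviations of same-numbered libraries had correlations of -0.15 to 0.15 over 18 pairs, and those of other pairs -0.14 to 0.19. No pairing by number was seen. With groups this small the check cannot tell whether same-numbered libraries shared a culture or a run. Depth is known only relative to control replicate 1, and members under 1 FPKM were not tested.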
